A study of Homo sapiens with 24 samples.

Results

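The BCL2 family of apoptosis regulators was followed on arrays of HEK293 cells that overexpressed the deacetylase SIRT6 or its H133W mutant, with and without TNFα. The members were 10 genes listed by name, by a rule that sets no threshold on measured values: BCL2, BCL2L1, MCL1 and BCL2A1, BAX and BAK1, and BCL2L11, BMF, BBC3 and PMAIP1. Every probe set that the platform's gene table assigns to a single one of these genes was taken, which gave 28 of the 54675 probe sets on the array and covered 9 of the 10 genes. BBC3 was represented only by a probe set that the table shares between BBC3 and neighbouring microRNA genes, and it is described apart from the 28.

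HEK293 is a human embryonic kidney line transformed with adenovirus DNA. Cells received no DNA (untransfected), the empty vector pCDNA3, the vector with Flag-tagged wild type SIRT6, or the vector with the Flag-tagged H133W mutant, which lacks deacetylase activity. After 24 h with the transfection complexes the medium was replaced by medium with TNFα at 10 ng/ml or with the carrier alone. These 8 conditions were each measured on 3 HG-U133 Plus 2.0 arrays labelled as biological replicates, 24 arrays in all, so that p-values measure the spread between these triplicates. The length of stimulation is given as 1 h in the design text of the series and as 4 h in the methods of the study, and the difference could not be settled here. Transfection was transient and reached only part of the cells, and RNA was taken from all of them, so that an effect in fewer cells and a smaller effect per cell cannot be told apart.

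Members of the BCL2 family decide whether the outer membrane of mitochondria is opened in apoptosis. BAX and BAK1 are the effectors that form the pores, BCL2, BCL2L1 (BCL-XL), MCL1 and BCL2A1 hold them in check, and the BH3-only proteins BCL2L11 (BIM), BMF, BBC3 (PUMA) and PMAIP1 (NOXA) relieve that restraint or act on the effectors directly. TNFα binds a death receptor but also activates NFκB, a transcription factor whose known targets include survival genes of this family such as BCL2A1 and BCL2L1.

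BMF and BCL2L11 carried the changes described below, and the 300 bases around their RefSeq transcript starts (250 before and 50 after, GRCh38.p14) are shown for that reason. Capitals mark matches, on either strand, to any of 7 motifs: the NFκB consensus, AP-1 (TGANTCA), CRE (TGACGTCA), FOXO (GTAAACA), the E box (CACGTG), the GC box (GGGCGG) and the heat shock unit (GAANNTTC). No matches overlapped one another. The BMF window lies at chr15:40108830-40109129 on the minus strand and the BCL2L11 window at chr2:111120664-111120963 on the plus strand.
BMF: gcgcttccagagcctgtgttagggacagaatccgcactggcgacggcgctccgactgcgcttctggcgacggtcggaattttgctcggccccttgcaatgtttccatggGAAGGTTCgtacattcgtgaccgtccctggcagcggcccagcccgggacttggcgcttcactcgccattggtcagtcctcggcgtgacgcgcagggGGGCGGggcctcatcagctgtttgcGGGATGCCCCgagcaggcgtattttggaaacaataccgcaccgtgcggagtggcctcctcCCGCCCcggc
BCL2L11: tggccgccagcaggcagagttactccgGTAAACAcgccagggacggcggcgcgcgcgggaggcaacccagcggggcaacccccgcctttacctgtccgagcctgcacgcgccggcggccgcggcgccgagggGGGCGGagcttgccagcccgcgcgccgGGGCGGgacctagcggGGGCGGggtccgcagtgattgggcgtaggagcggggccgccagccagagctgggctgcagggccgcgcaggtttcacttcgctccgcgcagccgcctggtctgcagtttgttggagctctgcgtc
The BMF window held 1 match to the NFκB consensus (bases 231 to 240), 2 to the GC box and 1 to the heat shock unit. The BCL2L11 window held 1 FOXO match (bases 28 to 34) and 3 GC boxes. Of the 35116 promoter windows in the RefSeq table, 11.3% held the NFκB consensus, 3.42% the FOXO motif, 6.77% the heat shock unit and 45% the GC box, while AP-1, CRE and E box motifs were held by 7.71%, 1.85% and 7.26%. The table lists another BMF window, at chr15:40106917-40107216, and none of the 7 motifs was found in it. Among the 11 windows that the table gives for members, the NFκB consensus was found in 1. These matches describe the letters alone and were not tested as binding sites.

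Of 9 measured markers of the HEK293 line 7 had a mean above 5.34, the median of all probe sets, led by NEFL, CDH2 and KRT18, whereas 0 of 9 blood markers did and 2 of 9 fibroblast markers (COL1A1 and COL3A1). Without TNFα the SIRT6 probe set 233179_x_at was higher than in empty vector cells by 0.75 in SIRT6 cells (adjusted p = 0.75) and by 1.15 in H133W cells (adjusted p = 0.0357), and 219613_s_at by 0.07 and 0.08, which did not pass. With TNFα the differences were 0.59 (adjusted p = 0.78) and 0.80 (adjusted p = 0.12) on 233179_x_at, and on 219613_s_at they were 0.15 (adjusted p = 0.92) in SIRT6 and 0.48 (adjusted p = 0.00733) in H133W cells. Whether either lies in the transfected coding sequence was not known here, so that they do not settle how much SIRT6 was made. The study reports that expression of both proteins was checked by Western blots of extracts of these cells and was found. Replicate 3 of H133W cells with TNFα stood apart from the other arrays. Its weight in an array quality fit was 0.0844, against 0.311 to 3.10 for the other 23, and its actin probe sets differed by 3.03 between the 3′ and 5′ ends of the transcript on the log2 scale, against 1.33 to 2.05. For the main results in H133W cells with TNFα, values without it are given as well. Without it the SIRT6 probe set 219613_s_at was higher in H133W than in empty vector cells with TNFα by 0.34 (adjusted p = 0.0355). All comparisons share 1 estimate of the spread of a probe set, so that this array also enters the tests of other cells. On the BCL2L11 probe set 1558143_a_at the SD was 0.74 in its condition and 0.06 to 0.21 in the others. Tests in other cells are given with this array in the fit unless stated.

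BMF fell in all 4 kinds of cell when TNFα was added, by between 1.06 and 1.30 on the log2 scale. BCL2 rose by less on 1 of its 4 probe sets in all 4 kinds of cell. BCL2L11 fell in H133W cells with TNFα on 2 of its 7 probe sets, and both calls were lost without the array of lowest weight. BCL2L1, BCL2A1, BAX, BAK1 and PMAIP1 passed no test. A probe set was called when its limma p-value, adjusted by Benjamini-Hochberg over all 54675 probe sets, was under 0.05 and its fold change was over 1.5.

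In untransfected cells 1 of the 28 probe sets was called with TNFα, against a background of 0.775% of all probe sets. In empty vector cells 1 was called against 0.860%, in SIRT6 cells 1 against 0.845%, and in H133W cells 3 against 1.12%. With no fold threshold, 3 of the 28 passed in untransfected cells (background 1.61%), 3 in empty vector cells (1.95%), 3 in SIRT6 cells (2.09%) and 6 in H133W cells (3.24%). Without replicate 3 of H133W cells with TNFα, 1 was called in that comparison (0.887%) and 4 passed with no fold threshold (2.48%). The median change of the 28 probe sets was 0.00, -0.03, -0.04 and -0.03 in these 4 comparisons, against -0.01, -0.02, -0.02 and 0.00 over all probe sets. The family's medians lay close to those of all probe sets, and the calls lay in BMF and BCL2L11.

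**Figure D1:**
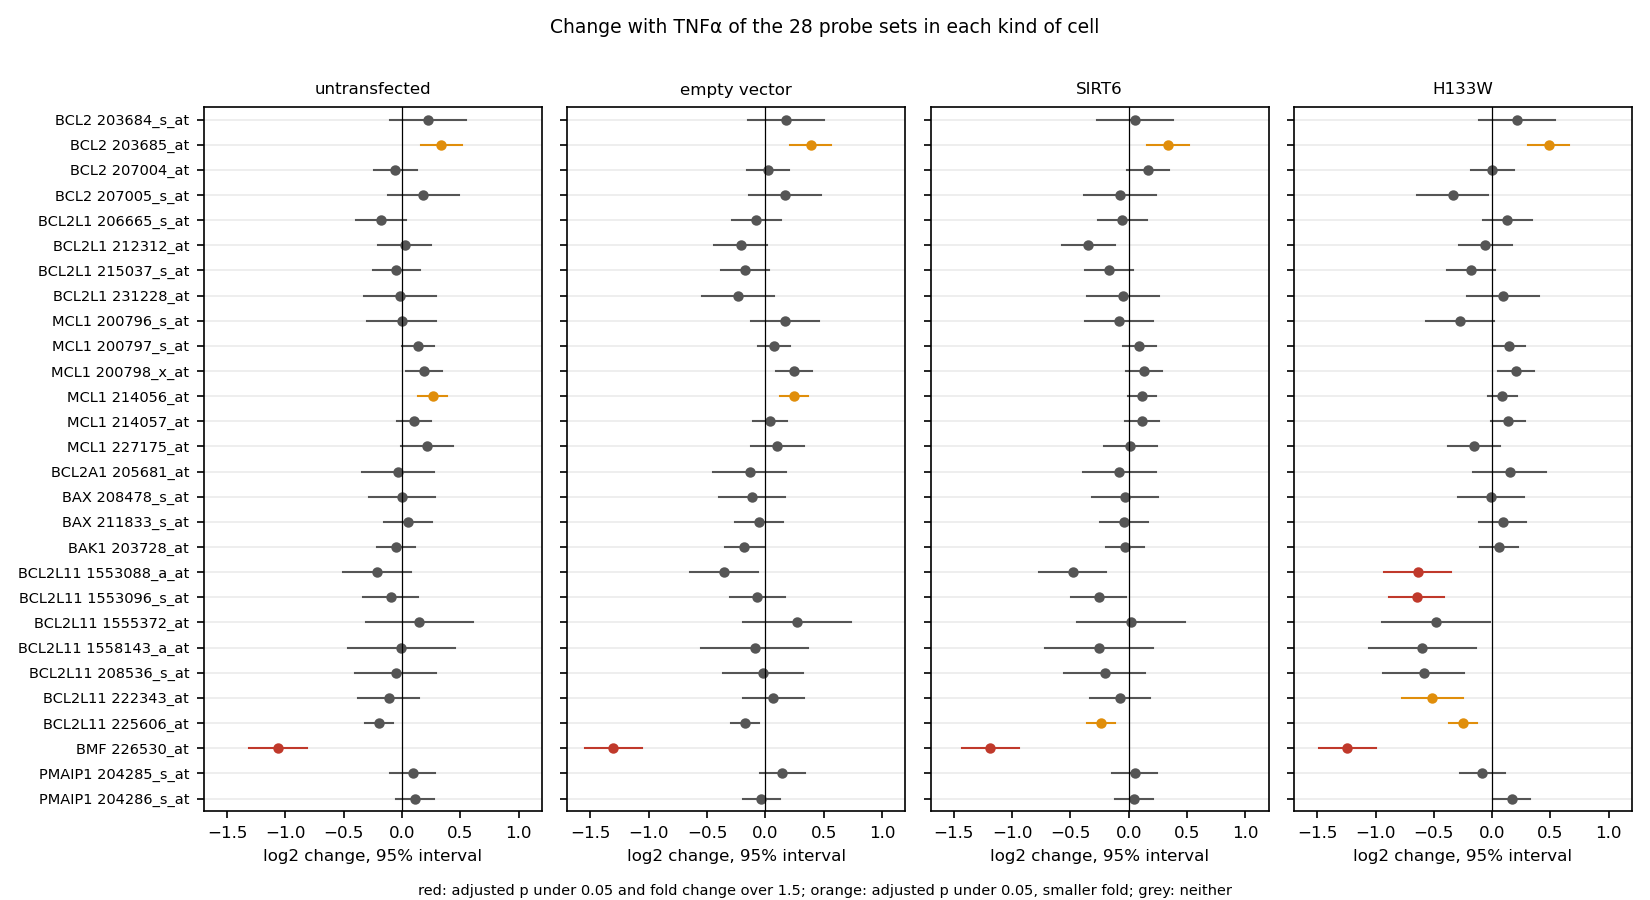
Change with TNFα of the 28 BCL2 family probe sets in untransfected, empty vector, SIRT6 and H133W cells, as log2 change with its 95% interval (3 arrays against 3). BMF stands apart at the left of every panel, between -1.06 and -1.30, and the BCL2L11 probe sets lie left of 0 in H133W cells.

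BMF, a BH3-only protein held by the dynein light chain at the cytoskeleton until it is released, had 1 probe set (226530_at). Without TNFα its log2 values were 6.78, 6.46 and 6.88 where no DNA was given, 6.66, 6.64 and 6.72 with the empty vector, 7.01, 6.92 and 6.99 with SIRT6, and 6.71, 6.86 and 6.88 with H133W. After TNFα they were 5.65, 5.76 and 5.52 where no DNA was given, 5.56, 5.25 and 5.29 with the empty vector, 5.76, 5.87 and 5.73 with SIRT6, and 5.46, 5.40 and 5.86 with H133W. Every array with TNFα thus lay below every array without it, whatever the cells carried.

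The log2 change of BMF with TNFα was -1.06 in untransfected cells (SE 0.117, adjusted p = 9.00e-06), a 2.09-fold fall. It was -1.30 in empty vector cells (adjusted p = 5.30e-07), a 2.47-fold fall. In SIRT6 cells it was -1.19 (adjusted p = 1.96e-06) and in H133W cells -1.24 (adjusted p = 1.13e-06), falls of 2.28-fold and 2.37-fold. Without replicate 3 with TNFα, the array of lowest weight, the change in H133W cells was -1.39 (adjusted p = 1.35e-07). Ordered by the size of the fall among all 54675 probe sets, BMF stood at place 8 in untransfected, 5 in empty vector, 6 in SIRT6 and 19 in H133W cells. The median change of all probe sets called lower was -0.72, -0.70, -0.72 and -0.73 in the same order.

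The size of the BMF response was then compared between kinds of cell by the interaction term. The response differed from that in empty vector cells by 0.12 (95% interval -0.23 to 0.46) in SIRT6 cells and by 0.06 (-0.28 to 0.41) in H133W cells. The empty vector response differed from the untransfected one by -0.24 (-0.59 to 0.11). None of the 3 differences passed, with adjusted p of 1, 0.91 and 1, and the intervals leave room for differences of up to 0.59 in size. The small difference in H133W cells turned to -0.08 without replicate 3 with TNFα.

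**Figure D2:**
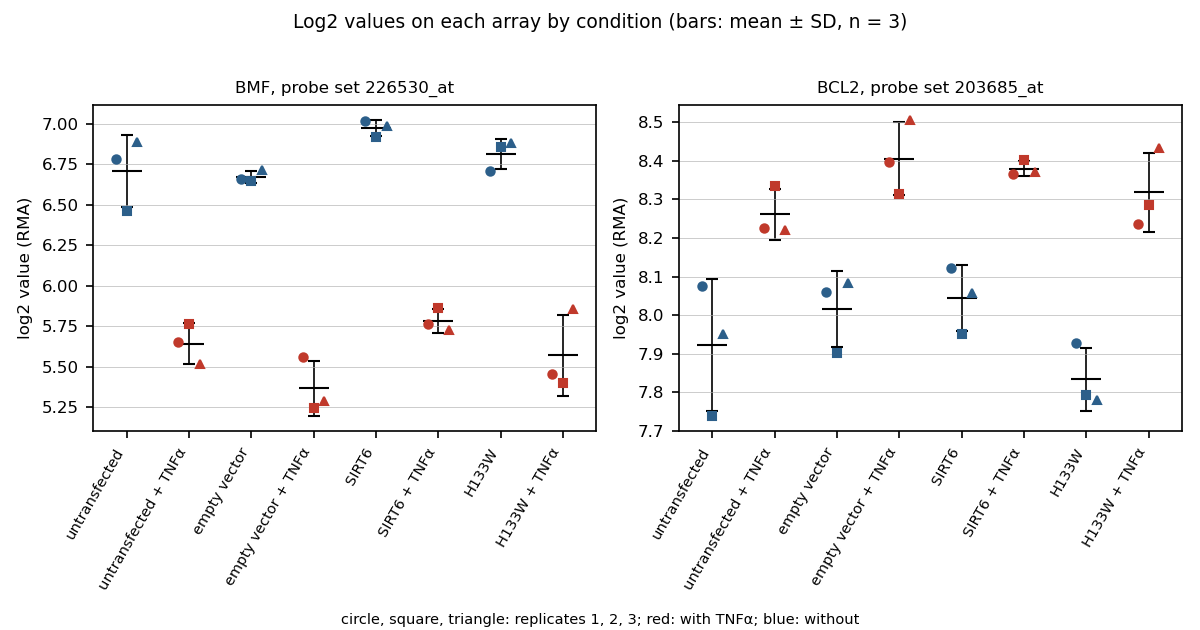
Log2 values of BMF (226530_at) and BCL2 (203685_at) on each of the 24 arrays, by condition, with mean ± SD of 3 arrays. BMF lay between 5.25 and 5.87 on the arrays with TNFα and between 6.46 and 7.01 without it, and BCL2 lay higher with TNFα in each kind of cell.

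Neither SIRT6 nor its mutant changed BMF by a test that passed. It was higher in SIRT6 than in empty vector cells by 0.30 without TNFα (95% interval 0.06 to 0.55, adjusted p = 0.75) and by 0.42 with it (0.17 to 0.66, adjusted p = 0.31). The 3 SIRT6 arrays were above the 3 empty vector arrays both times, but neither difference passed. In the same comparisons arrays did not overlap on 11.64% of all probe sets without TNFα and on 19.76% with it. In H133W cells the difference was 0.14 (-0.10 to 0.39) without and 0.20 (-0.04 to 0.45) with TNFα, and arrays overlapped. The latter was 0.06 without replicate 3 with TNFα.

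The genes whose pattern was most like that of BMF were sought over the 8 condition means, among 930 probe sets of single genes whose own means ranged over at least 1 log2 unit. They were WNT16 (Pearson r = 0.986), EYA1 (0.983), ZNF503-AS2 (0.979), DNAJC22 (0.977), FAM186A (0.974) and TXNIP (0.972). The 8 points share their arrays and the step between cells with and without TNFα, so these values only rank likeness and no p is given. EYA1, a coactivator of kidney development and itself among the HEK293 markers, changed with TNFα by -0.94, -1.04, -0.81 and -1.23 in untransfected, empty vector, SIRT6 and H133W cells. WNT16, a secreted WNT ligand, changed in the same order by -1.12, -1.07, -1.38 and -1.42, and TXNIP, a binding partner of thioredoxin, by -0.72, -0.72, -0.62 and -0.69. The highest of the 8 means was that of SIRT6 cells without TNFα for BMF (6.97), WNT16 (7.37), ZNF503-AS2 (6.88) and TXNIP (9.685). For EYA1 it was that of H133W cells without TNFα (7.88), and for DNAJC22 (7.67) and FAM186A (7.65) that of untransfected cells. The genes were picked by these same means, so that a shared peak is no separate result.

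**Figure D3:**
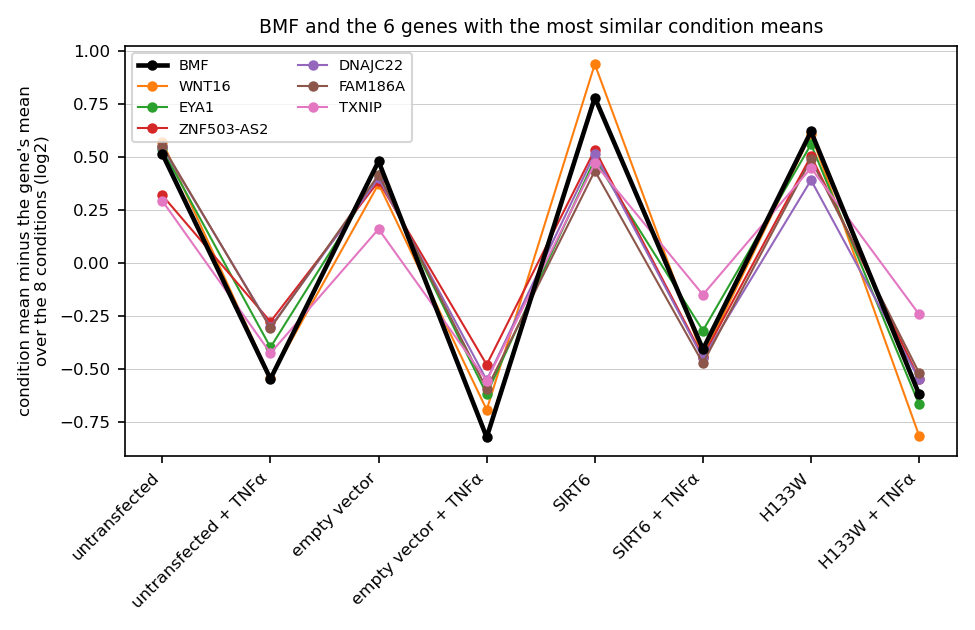
Condition means of BMF (thick black line) and of the 6 genes most like it, each minus the gene's own mean over the 8 conditions, on the log2 scale (each point the mean of 3 arrays). All 7 lines drop in every condition with TNFα, and BMF spans 1.61 between its highest and lowest mean.

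BCL2L11 encodes BIM, a BH3-only protein that binds all the survival members and is made in several spliced forms. It had 7 probe sets, which share the gene and are no replicates of one another. In cells other than H133W, the median of their log2 changes with TNFα was -0.10 in untransfected (6 of 7 negative), -0.07 in empty vector (5 of 7) and -0.24 in SIRT6 cells (6 of 7). The 1 that passed there, without reaching the fold threshold, was 225606_at in SIRT6 cells, at -0.24 (adjusted p = 0.0317), and it was lost whichever of the 6 arrays compared was left out (-0.24 to -0.22). The largest change was on 1553088_a_at, at -0.21 in untransfected (adjusted p = 0.80), -0.35 in empty vector (adjusted p = 0.28) and -0.48 in SIRT6 cells (adjusted p = 0.0921). None of these passed. Arrays with and without TNFα did not overlap on this probe set in any of the 3. The same held for 14.41%, 19.95% and 23.54% of all probe sets in these comparisons.

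In H133W cells all 7 probe sets were lower with TNFα, with changes between -0.65 and -0.25 and a median of -0.59. Values of 1553096_s_at were 6.38, 6.63 and 6.42 in H133W cells and 5.94, 6.00 and 5.55 in H133W cells with TNFα. Those of 1553088_a_at, whose mean over all arrays was below the median of all probe sets, were 4.98, 5.01 and 4.70, and 4.51, 4.34 and 3.93 with TNFα. Arrays with TNFα were lower than all arrays without it on both, and replicate 3 was the lowest each time. Over all probe sets, arrays did not overlap on 20.5% in this comparison.

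The change of 1553096_s_at was -0.65 (SE 0.113, adjusted p = 0.00196) and that of 1553088_a_at was -0.64 (SE 0.138, adjusted p = 0.0124), 1.56-fold falls that were both called. A further 2 passed below the fold threshold, 222343_at at -0.51 (adjusted p = 0.0265) and 225606_at at -0.25 (adjusted p = 0.0186). The remaining 3, 208536_s_at, 1558143_a_at and 1555372_at, did not pass, at -0.59 (adjusted p = 0.0577), -0.60 (0.150) and -0.48 (0.255).

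Replicate 3 of H133W cells with TNFα, the array of lowest weight, held the lowest value of all 24 arrays on 1558143_a_at, at 5.97 against 7.34 and 7.13 on the other H133W arrays with TNFα, and the part of RNA quality in this was not tested. Without this array, none of the 7 probe sets was called and 2 passed with no fold threshold, 1553096_s_at at -0.50 (adjusted p = 0.00969) and 225606_at at -0.27 (adjusted p = 0.0176). All 7 changes were still negative, with a median of -0.33. Without replicate 1 of the same condition, 6 probe sets of the family were called, and the share called over all probe sets was 3.33%. The call of 1553088_a_at was also lost without H133W replicate 1 or 2 (-0.60 and -0.58) and that of 1553096_s_at without H133W replicate 2 (-0.57). For 222343_at the test was no longer passed when any of the 3 H133W arrays without TNFα was left out (-0.52 to -0.50), and for 225606_at without H133W replicate 1 or 3 or replicate 2 with TNFα (-0.24, -0.23 and -0.20).

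**Figure D4:**
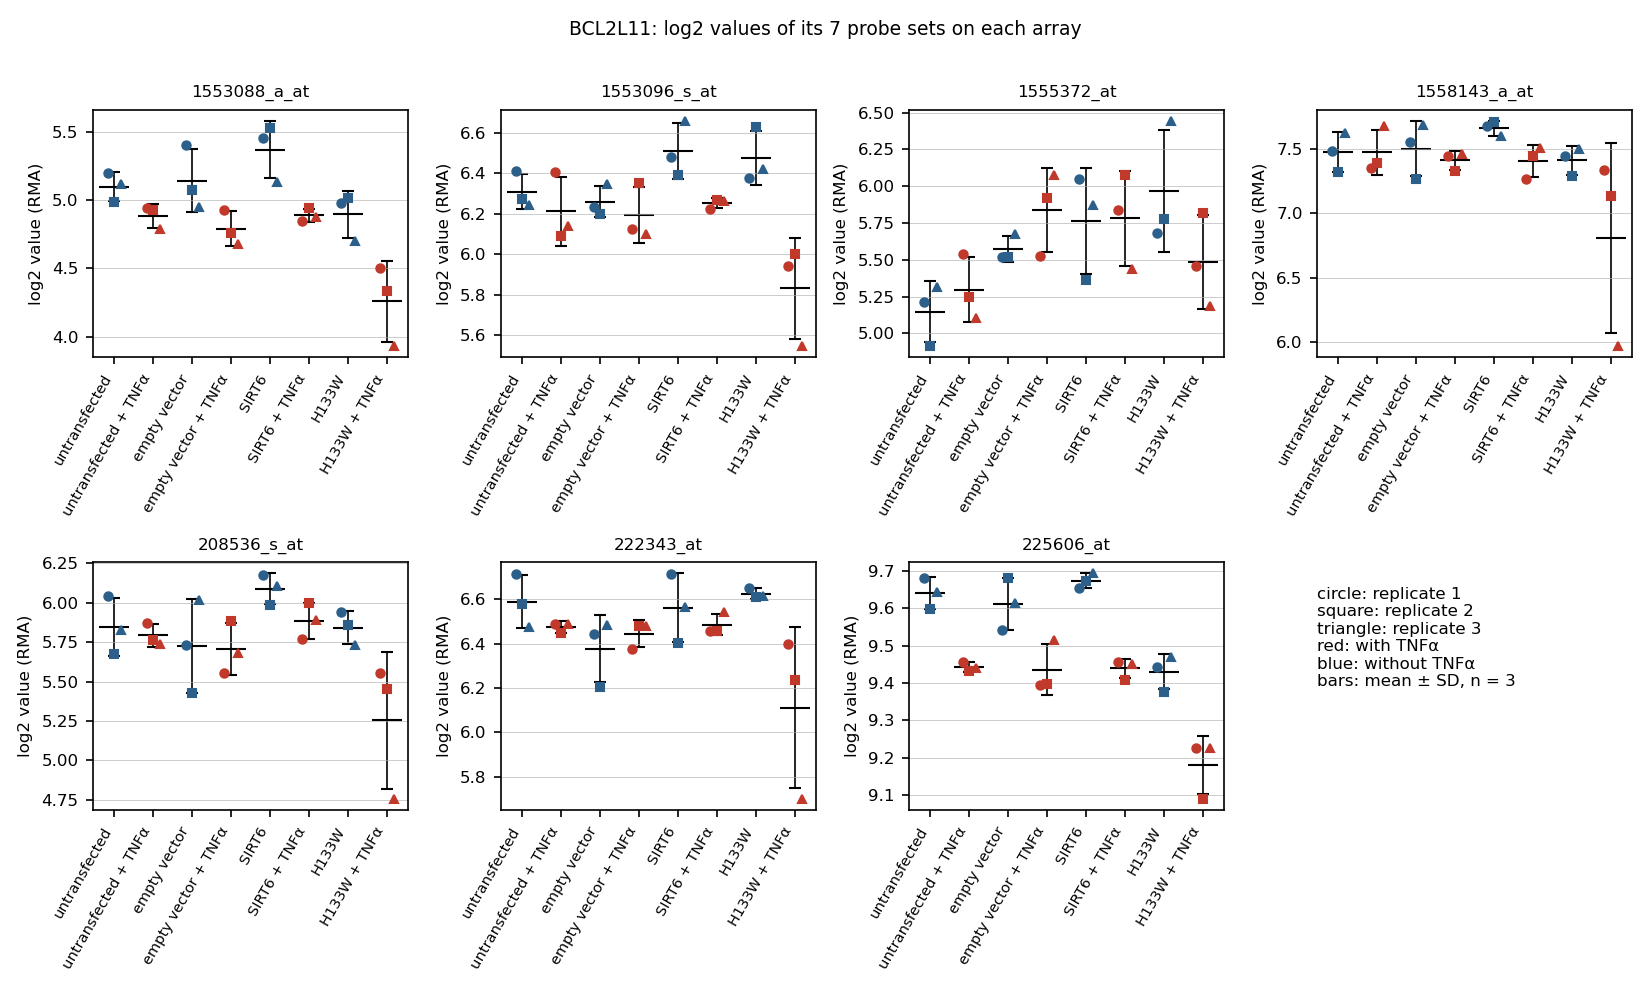
Log2 values of the 7 BCL2L11 probe sets on each of the 24 arrays by condition, with mean ± SD of 3 arrays. H133W cells with TNFα have the lowest mean on 6 of the 7, and their replicate 3, drawn as a triangle, lies well below replicates 1 and 2 on 1558143_a_at, 208536_s_at and 222343_at.

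With TNFα present, H133W cells were also compared with the other constructs for BCL2L11. All 7 probe sets were lower than in empty vector cells, by a median of -0.36. Of these 2 passed with no fold threshold, 1553088_a_at at -0.53 (adjusted p = 0.0294) and 225606_at at -0.25 (adjusted p = 0.0117), and none was called. All 7 were lower than in SIRT6 cells, by a median of -0.42, with 1553088_a_at called at -0.63 (adjusted p = 0.0301) and 225606_at at -0.26 (adjusted p = 0.0319) below the fold threshold. Without H133W replicate 3 with TNFα the medians were -0.20 against empty vector and -0.28 against SIRT6 cells, none was called, and 225606_at passed in both at -0.28. The difference of 1553088_a_at from empty vector cells was also lost when any of their arrays with TNFα was left out, and so was its difference from SIRT6 cells when any of theirs was left out, with changes between -0.76 and -0.37 throughout. That of 225606_at from empty vector cells was lost without their replicate 3 (-0.21), and from SIRT6 cells when any of their arrays or H133W replicate 2 was left out (-0.28 to -0.21). These comparisons share the H133W arrays with TNFα with the one above.

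The difference between the TNFα response of BCL2L11 in H133W and in empty vector cells was negative on all 7 probe sets, with a median of -0.57. None passed after adjustment, and 4 had an unadjusted p under 0.05. The closest was 1553096_s_at at -0.58 (95% interval -0.91 to -0.24, adjusted p = 0.57). Without replicate 3 of H133W cells with TNFα the median was -0.32, 1553096_s_at was at -0.43, and 2 had an unadjusted p under 0.05. In the same test of SIRT6 cells the median was -0.16, and no probe set was under 0.05 before adjustment. Without TNFα, H133W cells were higher than empty vector cells on 4 and lower on 3 of the 7, and none passed.

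PMAIP1 encodes NOXA, a BH3-only protein that binds MCL1. Its 2 probe sets were among the brightest of the family's, with means over all arrays of 11.77 (204285_s_at) and 11.73 (204286_s_at). Over 12 comparisons their changes ran from -0.22 to 0.17, the intervals from -0.41 to 0.34, and none passed (lowest adjusted p = 0.18). The lowest of the 24 values of 204285_s_at, 11.32, was again on H133W replicate 3 with TNFα, where replicates 1 and 2 were 11.81 and 11.73. Without this array the changes ran from -0.13 to 0.15.

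BBC3, which encodes PUMA, a BH3-only protein induced by p53, could be read only through the shared probe set 211692_s_at. Its changes with TNFα were 0.00 in untransfected, -0.05 in empty vector, 0.05 in SIRT6 and 0.03 in H133W cells. None of its comparisons passed, and the share of BBC3 in this signal cannot be told apart from that of the microRNA genes.

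Of the survival members, BCL2, the founding member of the family, had 4 probe sets, and 1 of them (203685_at) was higher with TNFα in all 4 kinds of cell. Its values were 8.08, 7.74 and 7.95 in untransfected and 8.06, 7.90 and 8.08 in empty vector cells, and 8.12, 7.95 and 8.06 in SIRT6 and 7.93, 7.79 and 7.78 in H133W cells. With TNFα they were 8.23, 8.34 and 8.22 in untransfected and 8.40, 8.31 and 8.51 in empty vector cells, and 8.37, 8.40 and 8.37 in SIRT6 and 8.24, 8.29 and 8.43 in H133W cells. Within each kind of cell, arrays with TNFα were above all those without it. Over all probe sets, arrays did not overlap on 14.41% in untransfected, 19.95% in empty vector, 23.54% in SIRT6 and 20.5% in H133W cells.

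The rise of BCL2 on this probe set was 0.34 in untransfected cells (SE 0.0846, adjusted p = 0.0466), 0.39 in empty vector cells (adjusted p = 0.0144), 0.34 in SIRT6 cells (adjusted p = 0.0408) and 0.48 in H133W cells (adjusted p = 0.00188). These are rises of 1.26-fold to 1.40-fold, below the fold threshold, so that none counts among the calls. The rise in H133W cells still passed whichever of its 6 arrays was left out, and was 0.43 without replicate 3 with TNFα (adjusted p = 0.0108). That in SIRT6 cells was lost whichever array was left out (0.29 to 0.38). That in untransfected cells was lost when any array but untransfected replicate 1 was left out (0.25 to 0.36), and that in empty vector cells without empty vector replicate 2 (0.33, adjusted p = 0.110) or replicate 3 with TNFα (0.34, adjusted p = 0.103).

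The other 3 BCL2 probe sets did not pass with TNFα in any kind of cell. Their changes ran from -0.06 to 0.22 in untransfected, from 0.02 to 0.18 in empty vector, from -0.08 to 0.16 in SIRT6 and from -0.34 to 0.21 in H133W cells. The lowest of these, 207005_s_at in H133W cells at -0.34, was -0.12 without replicate 3 with TNFα, which read 4.57 where replicates 1 and 2 read 5.31 and 5.13. SIRT6 moved none of the 4 against the empty vector, with changes between -0.06 and 0.14 without TNFα and between -0.13 and 0.08 with it. H133W cells differed from empty vector cells by -0.22 to 0.00 without TNFα and by -0.50 to -0.02 with it, and none passed. The lowest, 207005_s_at with TNFα, was at -0.50 (adjusted p = 0.0520) with no overlap of arrays, as on 22.04% of all probe sets. Without H133W replicate 3 it was at -0.29 (adjusted p = 0.26).

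MCL1, a short-lived survival protein, had 6 probe sets, of which 214056_at rose slightly after TNFα where cells carried no construct or the empty vector. Its values were 9.92, 9.82 and 9.84 in untransfected cells and 10.09, 10.09 and 10.20 with TNFα. In cells with the empty vector they were 9.79, 9.76 and 9.73, and 10.01, 10.02 and 9.98 with TNFα. Arrays with TNFα were above the others in both, by 0.26 (SE 0.0582, adjusted p = 0.0185) and 0.25 (adjusted p = 0.0283). Over all probe sets, arrays did not overlap on 14.41% and 19.95% in these comparisons. The rise in untransfected cells was lost without untransfected replicate 2 or 3 or replicate 3 with TNFα (0.25, 0.25 and 0.23), and that in empty vector cells whichever of its 6 arrays was left out (0.23 to 0.26).

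In SIRT6 and H133W cells the same MCL1 probe set changed by 0.11 (95% interval -0.01 to 0.24) and 0.09 (-0.03 to 0.21), and arrays overlapped. The response in SIRT6 cells differed from that in empty vector cells by -0.13 (-0.30 to 0.04, adjusted p = 1), and that in H133W cells by -0.16 (-0.33 to 0.01, adjusted p = 0.57), so that a difference between kinds of cell was not shown. The other 5 MCL1 probe sets passed in none of the 12 comparisons.

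BCL2L1, which encodes BCL-XL, had 4 probe sets with changes over 12 comparisons between -0.42 and 0.20. The nearest to passing was a lower level in empty vector than in untransfected cells with TNFα (adjusted p = 0.13). With TNFα its changes were between -0.18 and 0.02 in untransfected and between -0.24 and -0.08 in empty vector cells, and between -0.35 and -0.05 in SIRT6 and between -0.18 and 0.13 in H133W cells. The widest interval on the 48 tests reached -0.65, a 1.56-fold change.

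BCL2A1, a survival member best known from blood cells, had 1 probe set (205681_at) with the lowest mean of the 28, 2.47, and values from 2.19 to 2.93 over the 24 arrays. TNFα changed it by -0.03, -0.13, -0.08 and 0.15 in untransfected, empty vector, SIRT6 and H133W cells, with intervals inside -0.45 to 0.46. At a level this low on the array, below 5.34, a small change would be hard to detect.

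No effector probe set passed in any comparison. BAX, which moves from the cytosol to mitochondria, had condition means from 9.64 to 9.85 on 208478_s_at and from 10.50 to 10.71 on 211833_s_at, and BAK1, which resides in their outer membrane, from 8.69 to 8.92 on 203728_at. Over 12 comparisons BAX changed by -0.16 to 0.21 (lowest adjusted p = 0.30) and BAK1 by -0.18 to 0.21 (lowest adjusted p = 0.14). The intervals reached at most 0.48 for BAX and 0.37 for BAK1, which are changes of 1.39-fold and 1.29-fold. The highest BAX change, 211833_s_at in H133W against SIRT6 cells with TNFα, was 0.08 without H133W replicate 3, which read 10.97 where replicates 1 and 2 read 10.61 and 10.55. Without that array the BAX changes ran from -0.17 to 0.18 and the intervals reached at most 0.44 in size. By role, over the 12 comparisons, 7 of 120 tests of BH3-only probe sets were calls, 0 of 36 of effectors and 0 of 180 of survival members, while 13, 0 and 6 passed with no fold threshold. Over all probe sets 0.537% of such tests were calls and 1.61% passed with no fold threshold, and 4 of the 7 calls were those of the single BMF probe set. The rest were BCL2L11 probe sets on the H133W arrays with TNFα, and none of these was called without replicate 3. Tests of 1 role share arrays and genes, so they are not independent of one another.

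The constructs themselves gave no call among the members against the empty vector. Against empty vector cells without TNFα, none of the 28 probe sets was called by limma in SIRT6 cells (background 0.0348%) or in H133W cells (0.770%). At an unadjusted p under 0.05 were 4 and 2, against 3046 and 8063 of all probe sets. With TNFα none was called in SIRT6 cells (0.0695%) or in H133W cells (1.40%), with 1 and 9 under 0.05, against 3613 and 11167 of all probe sets. With no fold threshold 2 passed in H133W cells (5.25%), the BCL2L11 probe sets above. Without H133W replicate 3 with TNFα the last comparison gave no call (0.845%), 1 that passed with no fold threshold (3.62%) and 4 under 0.05. Between H133W and SIRT6 cells none was called without TNFα (0.119%), with 4 under 0.05 against 4751 of all probe sets. With TNFα 1 was called (0.333%), 2 passed with no fold threshold (1.15%), and 12 were under 0.05 against 8719. Without H133W replicate 3 with TNFα none was called (0.203%) and 6 were under 0.05. For the fits without that replicate there is no share of all probe sets under 0.05 to set beside the counts. The empty vector against no DNA gave none without TNFα (0.0933%, 3 under 0.05 against 6756 of all) and none with it (0.0329%, 7 under 0.05 against 6292 of all). A plain linear model gave the same counts of called members in all of these comparisons.

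**Figure D5:**
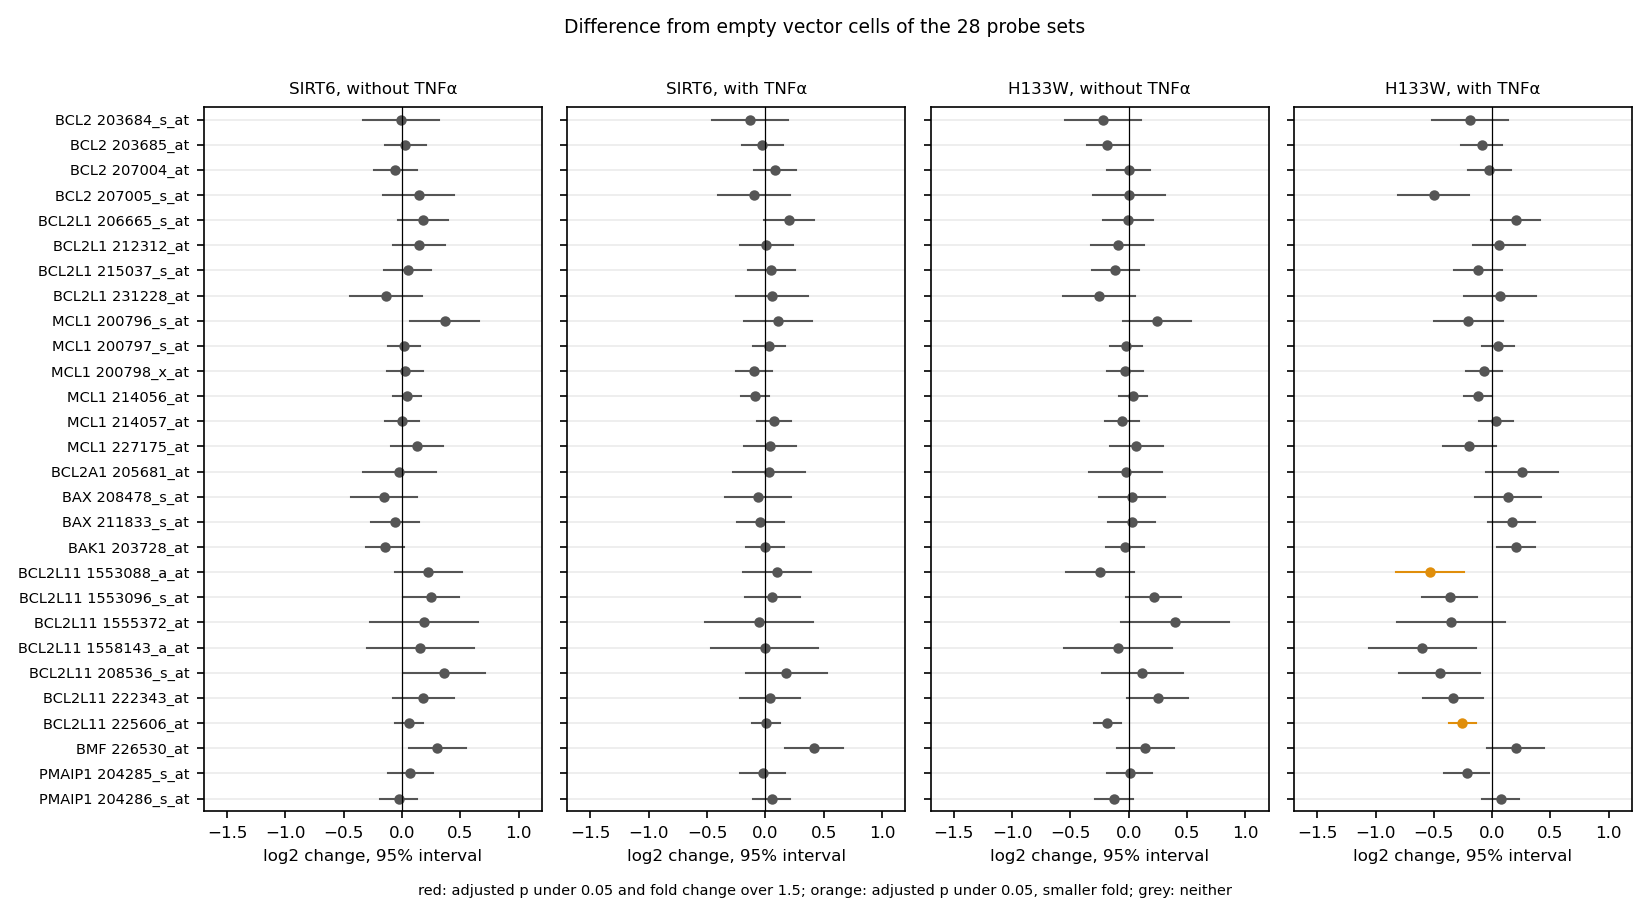
Difference of SIRT6 and H133W cells from empty vector cells, without and with TNFα, for the 28 BCL2 family probe sets, as log2 difference with its 95% interval (3 arrays against 3). None reaches both thresholds, and 2 BCL2L11 probe sets pass below the fold threshold in H133W cells with TNFα.

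The interaction of SIRT6 and TNFα gave 0 calls among the 28 (background 0%), with 0 under an unadjusted p of 0.05 against 1096 of all probe sets. That of H133W and TNFα gave 0 (0.00366%), with 7 under 0.05 against 4623 of all. That of the empty vector and TNFα gave 0 (0%), with 0 under 0.05 against 1321 of all. The plain linear model gave 0 calls in each as well. Of the 7 in the H133W test, 4 were the BCL2L11 probe sets described above. Without replicate 3 of H133W cells with TNFα, 2 were under 0.05, both of BCL2L11, with no share over all probe sets to set beside them.

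Other genes of the death pathway were read from lists, 1 probe set per gene. Over all 19775 genes, 3.93% were called in at least 1 of the 12 comparisons, the background for the 0 or 1 called gene of each list. Of 13 further BCL2 family genes, all measured, 1 was called, HRK, a BH3-only gene of neurons. It fell by 0.75 with TNFα in H133W cells (adjusted p = 0.00361), and without replicate 3 with TNFα the change was -0.55 (adjusted p = 0.0153), below the fold threshold. In untransfected, empty vector and SIRT6 cells HRK changed with TNFα by -0.31, -0.22 and -0.52, and none of these passed. Its response in H133W cells differed from that in empty vector cells by -0.53, or -0.33 without replicate 3. This difference did not pass (adjusted p = 0.57). Of 15 genes of the apoptosome and caspases 13 were measured and 0 were called by limma, and 0 were called of 10 genes of the mitochondrial outer membrane and its dynamics, all measured. At an unadjusted p under 0.05 were 15 of 156 tests of the former and 2 of 120 of the latter, with no share over all genes to set beside them. A plain linear model gave 0 calls in both. The median changes of these 3 lists with TNFα in empty vector cells were -0.08, -0.01 and 0.01, against -0.04 over all genes.

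Among 12 measured of 13 death receptor and adaptor genes, FAS, the receptor of FAS ligand, was the 1 called. It rose with TNFα by 0.78 in untransfected (adjusted p = 2.08e-06) and by 0.59 in empty vector cells (adjusted p = 9.55e-05). Below the fold threshold it also rose in SIRT6 cells, by 0.54 (adjusted p = 0.000272), and in H133W cells, by 0.33 (adjusted p = 0.0206), or 0.44 without replicate 3 with TNFα. The FAS response differed from that in empty vector cells by -0.05 (95% interval -0.28 to 0.18) in SIRT6 and by -0.26 (-0.49 to -0.03, or -0.15 without replicate 3) in H133W cells, and neither difference passed (adjusted p of 1 and 0.57). The call in empty vector cells was lost without empty vector replicate 1 or replicate 3 with TNFα.

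Among 9 measured of 10 inhibitor of apoptosis genes and antagonists 1 was called, NAIP, which was higher in H133W than in empty vector cells by 0.61 without TNFα (adjusted p = 0.00656), a call lost without empty vector replicate 1 or H133W replicate 3. Among 14 measured of 15 genes that act on BH3-only proteins and MCL1, DDIT3 (CHOP), a stress factor known to induce BCL2L11, was the 1 called. It was higher than in empty vector cells by 0.81 in H133W cells without TNFα (adjusted p = 0.000380) and by 1.08 in H133W cells with it (adjusted p = 1.16e-05), or 0.93 without replicate 3. In SIRT6 cells with TNFα it was higher by 0.60 (adjusted p = 0.0472), a call lost whichever of the 6 arrays was left out (0.57 to 0.65). In the same comparisons, BCL2L11 in H133W cells was higher on 4 and lower on 3 of its 7 probe sets without TNFα, and none passed. With TNFα it was lower on all 7, and 2 passed with no fold threshold, or 1 without replicate 3. In SIRT6 cells with TNFα it was higher on 5 and lower on 2, and none passed. A link between DDIT3 and BCL2L11 was not tested. Without TNFα, DDIT3 was also higher in SIRT6 than in empty vector cells by 0.41, which did not pass. In empty vector cells it was higher than in untransfected cells by 0.54 without TNFα (adjusted p = 0.0592) and by 0.24 with it, and neither passed. Between H133W and SIRT6 cells it differed by 0.40 without TNFα (adjusted p = 0.21). With TNFα the difference was 0.48 (adjusted p = 0.0513), or 0.33 without replicate 3, and none of these passed.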

How the data were processed

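The authors summarised the array intensities by RMA, and the deposited values are log2 and normalized per the labels. They were used unchanged, with all 54675 probe sets. Genes came from the platform's gene table, updated to current symbols, which left 41097 probe sets with 1 gene, 1801 with several and 11777 unnamed.

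All 24 arrays entered a single limma fit (version 3.58.1, R 4.3.3) that estimated the mean of every condition, with contrasts for 12 comparisons and 3 interactions. Benjamini-Hochberg adjustment ran over all probe sets of a comparison. Calls used the study's own thresholds, a fold change over 1.5 at an adjusted p under 0.05. The test was checked on simulated data. The precision is limited by 3 arrays per condition. Alternatives were a plain linear model, a variance trend, a repeated quantile normalization, leaving out dim probe sets or single arrays, and others named below.

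Named were all members, up to 4 called genes of each list, SIRT6, and the 6 genes most like the most variable member. The rule for members names genes and uses no measured value, but members and lists were proposed with earlier results of these data known. The RefSeq table gives no promoter window for MCL1. Figures were drawn with matplotlib 3.10.9.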

Additional observations from a re-analysis of the deposited data

How the results depend on the processing

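The fall of BMF with TNFα was called in all 4 kinds of cell under each of the 8 alternatives and without each array in turn, with changes between -1.40 and -0.97. The counts of called members moved as follows. With no fold threshold they were 3 in untransfected, 3 in empty vector, 3 in SIRT6 and 6 in H133W cells with TNFα, and 2 each in H133W against empty vector and H133W against SIRT6 with TNFα. Leaving out the 3 arrays of lowest weight gave 1 for TNFα in H133W cells and 0 for H133W against SIRT6 with TNFα, and so did a fit limited to the 2 conditions compared. Leaving out single arrays gave 1 to 2 for TNFα in SIRT6 cells (2 without SIRT6 replicate 3), 1 to 6 for TNFα in H133W cells, 0 to 4 for H133W against empty vector with TNFα, 0 to 3 for H133W against SIRT6 with TNFα, and 0 to 1 for empty vector against untransfected without TNFα (1 without empty vector replicate 3). The highest counts in the H133W comparisons came without H133W replicate 1 with TNFα. The cause was not tested. Without that array the shares called over all probe sets rose to 3.33%, 3.99% and 2.13% in the 3 H133W comparisons. Beside BMF, 15 changes of BCL2, BCL2L11 and MCL1 probe sets passed. In the fit limited to the conditions compared 14 of them were lost, with adjusted p from 0.0785 to 0.62, and the rise of BCL2 in SIRT6 cells was the 1 kept. Without the 3 arrays of lowest weight 5 were lost: the rise of BCL2 in untransfected cells (adjusted p = 0.0702), 1553088_a_at of BCL2L11 in its 3 comparisons (adjusted p from 0.058 to 0.129), and the call of 1553096_s_at, which fell below the fold threshold at -0.50. With a variance trend the rise of BCL2 in untransfected cells was lost (adjusted p = 0.0504). The other alternatives changed no count of called members. Counts over all probe sets did move. For empty vector against untransfected cells without TNFα they were 51 in the main fit, 27 with the plain linear model and 23 after repeated quantile normalization. With TNFα the same comparison gave 18 in the main fit and 7 with the plain linear model.

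No sign was seen that the replicate numbers pair the arrays. Deviations of same-numbered arrays from their condition means correlated between -0.477 and 0.415 over 84 pairs of arrays, 17 of them above 0.1 (median 0.009). For arrays of different number they ran from -0.459 to 0.544 over 168 pairs, 49 of them above 0.1 (median 0.005). The replicate block left the counts of called members at 1, 1, 1 and 3 for TNFα in untransfected, empty vector, SIRT6 and H133W cells. Some 6 of the 28 probe sets had a mean below the median of all probe sets, where changes are hardest to measure.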
